A study of Mus musculus with 2 samples.

Results

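Autophagy machinery and cargo receptors are described here as 40 genes, found by matching the Ensembl identifiers of 2 RAW264.7 libraries to mouse gene symbols among 52550 identifiers in all. RAW264.7 is an established line of mouse macrophages, obtained by transformation with the Abelson leukaemia virus. One library came from purified, untreated cells of a 3D culture and the other from purified, untreated cells of a 2D culture, with no other genotype, agent or time given in the labels. The labels do not describe the 3D method, and a transformed line is limited as a model of primary macrophages. Each culture method had 1 library, so no difference below could be set against a spread between replicates, and p-values were not calculated. Total counts were 16652503 for 3D and 14371084 for 2D.

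Autophagy encloses cytoplasm in a double membrane and delivers it to the lysosome. A kinase complex around ULK1 starts the process, and a lipid kinase complex around VPS34 (the product of Pik3c3) marks the site with phosphatidylinositol 3-phosphate, a lipid bound by WIPI proteins. A ubiquitin-like conjugation system then attaches LC3 and GABARAP proteins to the growing membrane, where cargo receptors such as SQSTM1 (p62) bind them. In macrophages the same machinery also serves the removal of bacteria and of damaged organelles.

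Cargo receptor Sqstm1, the ubiquitin-like proteins Gabarap and Map1lc3a, and Atg7, the activating enzyme of the conjugation system, were the most strongly higher members in the 3D library. Their ratios of 3D over 2D ran from 3.25 to 6.34. Of the 39 members that could be measured, 9 had a ratio of 2 or more, 2 were lower in 3D by the same factor, and 28 lay between. Among all 11673 measured genes, the shares past these limits were 18.7% higher and 20.8% lower. The 9 higher members made a share near this background, and the 2 lower ones, Rb1cc1 and Atg4c, a share below it. The median log2 ratio was 0.36 for the members and 0.05 for all measured genes.

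Levels are counts per 1000000 after scaling with TMM (trimmed mean of M-values) factors, written CPM. Measured genes are those whose mean reached 1 CPM. Each ratio is that of CPM in the 3D library over CPM in the 2D library, with an exact 95% interval for counting error only. Reads were not tied to molecules by identifiers, so they are not independent and these intervals can be too narrow, and they hold no spread between cultures. In bulk RNA, fewer cells of a kind and less RNA per cell cannot be told apart.

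The scaling moved all ratios together. Under total counts each log2 ratio was 0.60 lower than under TMM, the median of all measured genes was -0.55 and that of the members -0.24. Then 4 members were 2-fold or more higher, against 5.77% of all genes, and 8 were at least 2-fold lower, against 35.9%. The 4 that stayed higher were Sqstm1, Gabarap, Map1lc3a and Atg7, with total-count ratios of 3.22, 2.15, 4.19 and 2.33. The direction of 12 of the 39 members differed between these scalings.

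Promoter windows are shown for 4 members on which the results turn: Sqstm1 and Gabarap, the highest members per kilobase of exon, and Atg7 and Atg3, enzymes of successive steps of conjugation whose ratios lay on opposite sides of 1. Each runs from 250 bases before to 50 bases after a RefSeq start on build GRCm38.p6, 5′ to 3′ on the gene's strand. Capitals mark CACGTG, the core of the CLEAR element bound by TFEB and its relatives.
Sqstm1, chr11:50210771-50211070, minus strand: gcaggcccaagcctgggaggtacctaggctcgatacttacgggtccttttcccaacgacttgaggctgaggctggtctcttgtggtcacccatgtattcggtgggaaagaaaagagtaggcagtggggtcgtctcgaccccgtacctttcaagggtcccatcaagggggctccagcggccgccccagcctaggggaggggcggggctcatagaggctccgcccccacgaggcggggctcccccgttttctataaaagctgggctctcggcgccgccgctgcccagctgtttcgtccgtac
Gabarap, chr11:69991120-69991419, plus strand: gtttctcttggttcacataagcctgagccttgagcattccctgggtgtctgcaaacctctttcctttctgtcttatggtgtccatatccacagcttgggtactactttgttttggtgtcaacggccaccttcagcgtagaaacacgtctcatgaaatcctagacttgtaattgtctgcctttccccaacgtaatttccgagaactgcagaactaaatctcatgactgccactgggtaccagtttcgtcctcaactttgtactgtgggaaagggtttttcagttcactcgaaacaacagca
Atg7, chr6:114670846-114671145, plus strand: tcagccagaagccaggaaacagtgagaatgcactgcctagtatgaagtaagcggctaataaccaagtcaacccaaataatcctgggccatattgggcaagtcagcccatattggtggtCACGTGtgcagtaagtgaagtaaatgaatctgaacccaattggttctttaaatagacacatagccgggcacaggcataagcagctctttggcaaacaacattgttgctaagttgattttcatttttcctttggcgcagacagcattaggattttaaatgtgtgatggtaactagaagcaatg
Atg3, chr16:45158579-45158878, plus strand: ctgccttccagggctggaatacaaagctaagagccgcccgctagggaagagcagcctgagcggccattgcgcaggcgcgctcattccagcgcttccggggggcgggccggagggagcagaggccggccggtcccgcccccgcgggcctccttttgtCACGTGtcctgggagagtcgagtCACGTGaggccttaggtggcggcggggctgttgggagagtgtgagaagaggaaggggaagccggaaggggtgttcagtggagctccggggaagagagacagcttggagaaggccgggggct
The start used for the Atg7 window lies 27999 bases downstream of the gene's first annotated base in GENCODE M21, so it covers an internal start. For Gabarap the distance was 227 bases, for Atg3 44 and for Sqstm1 7.

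Windows were matched for 34 of the 40 members, 5 of which had more than 1, giving 40 windows. CACGTG, which is its own reverse complement, was found in 5 of them (12.5%) and in 7.15% of 32851 windows of all genes. The full CLEAR element, which contains CACGTG, was in 0 member windows and in 0.326% of all. TGACNNNGC, the core of the antioxidant response element, searched on both strands, was in 7 member windows (17.5%) and in 12.4% of all. Of these 7 windows, 3 belong to Vmp1, and without that gene the motif was in 4 of 37 windows (10.8%), a count made after seeing the data. Of 8 windows of members at least 2-fold higher in 3D, 1 held CACGTG, that of the internal Atg7 start, and 0 held TGACNNNGC. Map1lc3a, with the highest ratio of the measured members, and Rb1cc1, with the lowest, had no window. The Atg3 window held CACGTG at 2 places. Matches of letters do not show that a factor binds there.

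**Figure D1:**
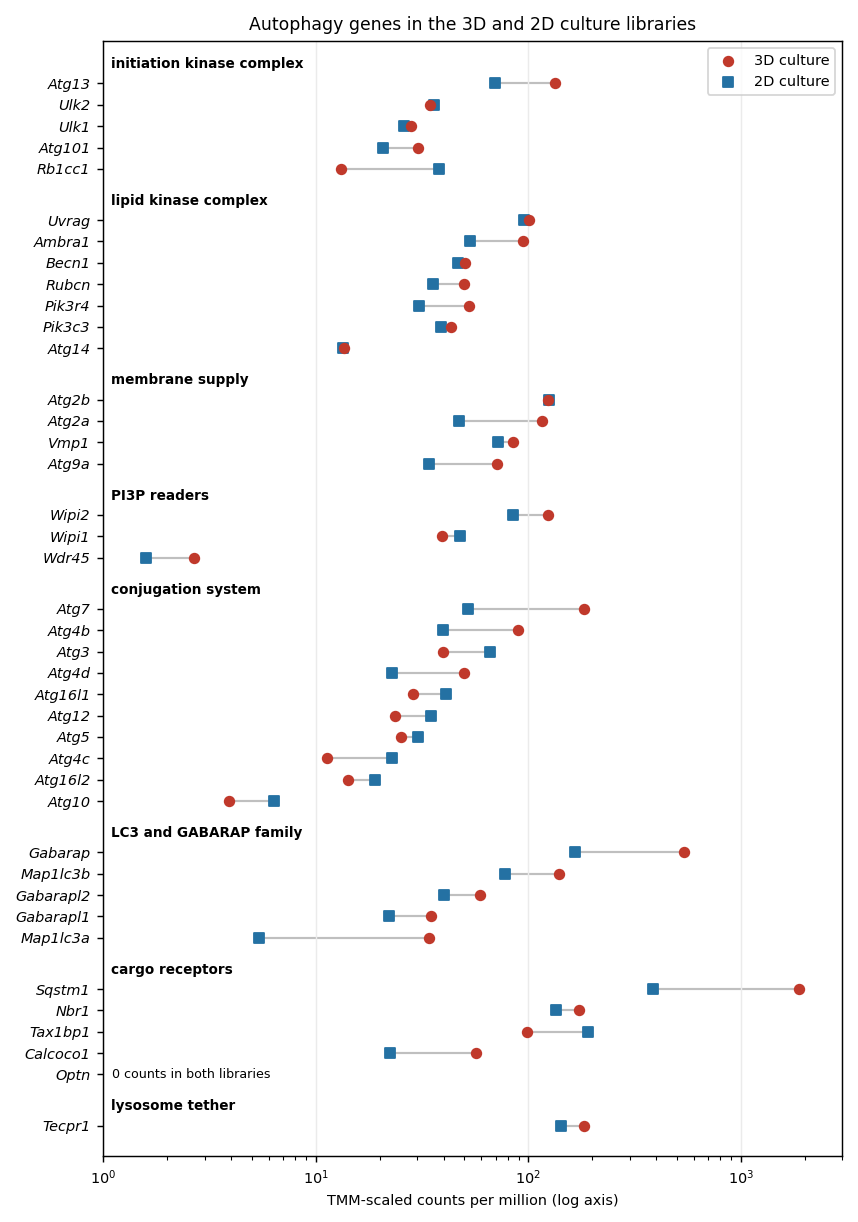
TMM-scaled CPM (log axis) of each of the 40 genes in the 3D library (red circles) and the 2D library (blue squares), grouped by role and ordered by mean within a role; each point is 1 library. Sqstm1 stands highest in both libraries, at 1877 CPM in 3D and 385 CPM in 2D, and Optn had 0 counts in both.

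The cargo receptors tie marked cargo to LC3 and GABARAP proteins. Under TMM scaling 3 of the 4 measured genes had ratios above 1 and Tax1bp1 a ratio below 1, beside 6045 of all 11673 measured genes above 1. After the adjustment described further on all 4 lay above 0, beside 5697 of the 10538 genes adjusted. Sqstm1 (ENSMUSG00000015837, chromosome 11, 50199366 to 50210827), whose product p62 binds ubiquitinated proteins and also holds KEAP1, had 25402 counts in 3D and 6805 in 2D. This was 1877 CPM in 3D and 385 CPM in 2D, a ratio of 4.88 (4.75 to 5.01). Sqstm1 alone made up 38.6% of member counts in 3D (38.2% to 38.9%, Wilson 95% interval) and 15.8% in 2D (15.4% to 16.1%). Members held 0.396% of all counts in 3D (0.393% to 0.399%) and 0.300% in 2D (0.297% to 0.303%). Without Sqstm1 the share was 0.243% in 3D (0.241% to 0.245%) and 0.253% in 2D (0.250% to 0.255%). The order of the libraries in these shares turned round when that gene was left out. Shares of all counts do not use TMM scaling. Under TMM the median log2 ratio of the 38 measured members other than Sqstm1 was 0.36, beside 0.05 for all measured genes. Under total counts it was -0.24, beside -0.55. On the opposite strand, Mrnip shares 17.3% of the exon bases of Sqstm1, and Mrnip had 72 counts in 3D and 51 in 2D. Here and below, few counts of an overlapping gene or copy do not show that no reads of the member were lost to it.

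Calcoco1, which encodes a receptor for autophagy of the endoplasmic reticulum and Golgi, had 771 counts in 3D and 396 in 2D. Its level was 57.0 CPM in 3D and 22.4 CPM in 2D, a ratio of 2.54 (2.25 to 2.88). Nbr1, a partner of p62, was closer to equal, at 173 CPM in 3D and 135 CPM in 2D, a ratio of 1.28 (1.2 to 1.35). Tax1bp1, a ubiquitin-binding receptor that also restrains inflammatory signalling, had 1333 counts in 3D and 3382 in 2D. Its 98.5 CPM in 3D and 191 CPM in 2D made it 1.94-fold lower in 3D (1.82 to 2.07), just short of the 2-fold rule. Its adjusted log2 ratio was 0.05, on the other side of 0. Optn, the gene of the receptor optineurin, had 0 counts in both libraries, which allows up to 0.222 CPM in 3D and 0.170 CPM in 2D. In the annotation 1.95% of its exon bases are shared with another gene, which had 0 counts as well.

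All 5 genes of the LC3 and GABARAP family, the proteins that are joined to the membrane, had ratios above 1 under TMM scaling. So did 6045 of all 11673 measured genes. The family's median log2 ratio was 0.84. Under total counts the log2 ratio of Gabarapl2 turned to -0.03 and the other 4 stayed above 0. After the adjustment described further on all 5 lay above 0, beside 5697 of the 10538 genes adjusted. Gabarap (ENSMUSG00000018567, chromosome 11, 69991143 to 69994951) had 7311 counts in 3D and 2941 in 2D. It reached 540 CPM in 3D and 166 CPM in 2D, a ratio of 3.25 (3.11 to 3.39). Gabarap took 66.9% of the family's counts in 3D (66.0% to 67.8%) and 53.5% in 2D (52.1% to 54.8%).

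Map1lc3a (ENSMUSG00000027602, chromosome 2, 155276297 to 155278073) encodes LC3A and had the lowest level of the family per kilobase of exon in 2D, at 4.55 CPM per kilobase. It had 461 counts in 3D and 95 in 2D, or 34.1 CPM in 3D and 5.37 CPM in 2D. The ratio of 6.34 (5.08 to 8.0) was the highest among the 39 measured members. Map1lc3b, the gene of the widely used autophagosome marker LC3B, stood at 139 CPM in 3D and 77.2 CPM in 2D, a ratio of 1.80 (1.67 to 1.93). A processed copy of Map1lc3b, Gm6055, which matches it at 99.6% over 282 bases, had 426 counts in 3D and 302 in 2D, so the assignment of reads between them is uncertain. The other 4 copies of Map1lc3b had at most 3 counts each. Gabarapl1 had 34.9 CPM in 3D and 22 CPM in 2D, and Gabarapl2 had 59.5 CPM in 3D and 40.1 CPM in 2D. Their ratios were 1.59 (1.38 to 1.82) and 1.48 (1.34 to 1.64). Gabarapl2 has 6 processed copies with at most 3 counts each, and Gabarapl1 shares 28.3% of its exon bases with a gene on the other strand that had 1 count in 3D and 0 in 2D.

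Genes of the conjugation system had ratios on both sides of 1 under TMM scaling. Of its 10 genes, 3 were 2-fold or more higher in 3D and 1 was lower by that factor, beside 18.7% and 20.8% of all measured genes. Ratios were below 1 for 7 of the 10, beside 5628 of all 11673 measured genes. The median log2 ratio of -0.47 turned to 0.28 after adjustment for GC content, length and expression. Under total counts 1 gene was past 2-fold higher and 6 lower, beside 5.77% and 35.9% of all genes. After the adjustment 2 were higher and 0 lower, beside 9.95% and 7.39%. Atg7 (ENSMUSG00000030314, chromosome 6, 114643097 to 114860614), which activates both ATG12 and LC3 proteins for transfer, had 2479 counts in 3D and 920 in 2D. At 183 CPM in 3D and 52.0 CPM in 2D its ratio was 3.52 (3.26 to 3.80). Genes of the transfer enzymes that take over from ATG7 had ratios below 1 under TMM scaling and adjusted log2 ratios above 0. Atg3, which passes LC3 proteins to lipid, stood at 39.6 CPM in 3D and 66.0 CPM in 2D and was 1.67-fold lower in 3D (1.5 to 1.85). Atg10, which passes ATG12 to ATG5, had 53 counts in 3D and 112 in 2D and was 1.62-fold lower (1.16 to 2.29).

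ATG12, ATG5 and ATG16L1 form the complex that places LC3 on the membrane, and the genes of all 3 had ratios below 1, though their adjusted log2 ratios lay above 0. Atg12 had 23.6 CPM in 3D and 34.9 CPM in 2D, Atg5 had 25.1 CPM in 3D and 30.3 CPM in 2D, and Atg16l1 had 28.7 CPM in 3D and 40.9 CPM in 2D. Their ratios were 0.675 (0.587 to 0.773), 0.827 (0.719 to 0.949) and 0.702 (0.619 to 0.795). Atg16l2, a relative of Atg16l1, had 14.1 CPM in 3D and 18.9 CPM in 2D, a ratio of 0.745 (0.621 to 0.893). These 4 values lay within a narrow band, and their counting intervals overlapped.

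The ATG4 proteases trim LC3 proteins before conjugation and free them afterwards. Atg4b, the main protease of the family, had 1204 counts in 3D and 701 in 2D, or 89.0 CPM in 3D and 39.6 CPM in 2D, a ratio of 2.24 (2.04 to 2.47). Atg4d had 675 counts in 3D and 405 in 2D, or 49.9 CPM in 3D and 22.9 CPM in 2D, a ratio of 2.18 (1.92 to 2.47). Atg4c went the other way, with 153 counts in 3D and 404 in 2D, or 11.3 CPM in 3D and 22.8 CPM in 2D, and was 2.02-fold lower (1.67 to 2.45). Kri1, which had 346 counts in 3D and 533 in 2D, lies on the other strand over 19.3% of the exon bases of Atg4d, and the strand setting of the counting is not given. Gm2774, a processed copy that matches Atg4b at 90.8% over 720 bases, had 1 count in 3D and 0 in 2D.

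In the initiation complex, the scaffold gene Rb1cc1 was the lowest of all measured members and the adaptor Atg13 was close to 2-fold higher. Rb1cc1 (ENSMUSG00000025907, chromosome 1, 6206197 to 6276648), which encodes FIP200, had 178 counts in 3D and 668 in 2D. At 13.2 CPM in 3D and 37.8 CPM in 2D it was 2.87-fold lower in 3D (2.43 to 3.41). The adjustment described further on turned this direction round, to a log2 ratio of 0.21, while adjustment for GC content alone left it at -0.23. Gm13961, a processed copy that matches Rb1cc1 at 94.8% over 4807 bases, had 0 counts in 3D and 1 in 2D. Atg13, with the most counts in the complex, had 1803 counts in 3D and 1226 in 2D, or 133 CPM in 3D and 69.3 CPM in 2D, a ratio of 1.92 (1.79 to 2.07). Atg101, the partner of ATG13, had 30.4 CPM in 3D and 20.6 CPM in 2D, a ratio of 1.47 (1.28 to 1.70). The kinase genes themselves were near equal under TMM scaling. Ulk1 had 28.1 CPM in 3D and 26.1 CPM in 2D, a ratio of 1.08 (0.938 to 1.24), and Ulk2 had 34.6 CPM in 3D and 36.1 CPM in 2D, a ratio of 0.957 (0.848 to 1.08). Adjusted log2 ratios were 0.31 for Atg13, and lay below 0 for Atg101 at -0.37 and for Ulk1 at -0.31.

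In the lipid kinase complex 0 of 7 genes were past 2-fold in either direction, with ratios from 1.01 to 1.78 under TMM scaling. Among all measured genes 18.7% were past 2-fold higher and 20.8% lower. Under total counts only Ambra1 and Pik3r4 of the 7 stayed above 1. Uvrag, which directs the complex to late steps, had the most counts, with 1355 in 3D and 1691 in 2D, or 100.1 CPM in 3D and 95.6 CPM in 2D, a ratio of 1.05 (0.974 to 1.13). Becn1, the regulatory subunit Beclin, had 50.1 CPM in 3D and 46.7 CPM in 2D. The catalytic subunit gene Pik3c3 had 43.5 CPM in 3D and 38.6 CPM in 2D. Atg14, which targets the complex to the site of initiation, had 13.6 CPM in 3D and 13.5 CPM in 2D. The highest ratios were those of Ambra1, a Beclin cofactor, at 1.78 (1.64 to 1.94), and Pik3r4, the VPS15 subunit, at 1.72 (1.54 to 1.93). Ambra1 had 94.7 CPM in 3D and 53.2 CPM in 2D, and Pik3r4 had 52.6 CPM in 3D and 30.6 CPM in 2D. Rubcn, an inhibitor of the complex that also takes part in LC3-associated phagocytosis, had 49.9 CPM in 3D and 35.7 CPM in 2D, a ratio of 1.40 (1.25 to 1.56). Cntd1 lies on the other strand over 43.9% of the exon bases of Becn1 and had 0 counts in 3D and 2 in 2D. Uvrag shares 17.6% of its exon bases with Gm45187, which had 0 counts in 3D and 1 in 2D.

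Of 4 genes for membrane supply, 2 were at least 2-fold higher in 3D and 0 lower, beside 18.7% and 20.8% of all measured genes. Under total counts and after the adjustment described further on, 0 of the 4 were past 2-fold. Atg2a, which encodes a lipid transfer protein, had 1564 counts in 3D and 830 in 2D, or 116 CPM in 3D and 46.9 CPM in 2D, a ratio of 2.46 (2.26 to 2.68). Its paralog Atg2b had the most counts of the group, with 1672 counts in 3D and 2215 in 2D, and was near equal, at 124 CPM in 3D and 125 CPM in 2D, a ratio of 0.987 (0.925 to 1.05). Atg9a, which encodes a lipid scramblase carried on vesicles, had 965 counts in 3D and 600 in 2D, or 71.3 CPM in 3D and 33.9 CPM in 2D, a ratio of 2.10 (1.90 to 2.33). An annotated gene on the same strand, Gm29253, with 0 counts in both libraries, shares 31.8% of the exon bases of Atg9a. Vmp1, which encodes a scramblase of the endoplasmic reticulum, had 84.8 CPM in 3D and 72.0 CPM in 2D, a ratio of 1.18 (1.09 to 1.28).

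Of the genes for proteins that read the lipid mark, Wipi2, which recruits ATG16L1, had 1673 counts in 3D and 1494 in 2D, or 124 CPM in 3D and 84.5 CPM in 2D, a ratio of 1.46 (1.36 to 1.57). Wipi1 went the other way, with 39.2 CPM in 3D and 47.4 CPM in 2D, a ratio of 0.826 (0.739 to 0.922). Wdr45 had only 36 counts in 3D and 28 in 2D, and its interval of 0.997 to 2.86 included 1. Gm45208, an annotated gene on the same strand with 0 counts in both libraries, shares 24.7% of its exon bases. Tecpr1, which links autophagosomes to lysosomes, had 2466 counts in 3D and 2513 in 2D, or 182 CPM in 3D and 142 CPM in 2D, a ratio of 1.28 (1.21 to 1.36), while its adjusted log2 ratio was -0.30.

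**Figure D2:**
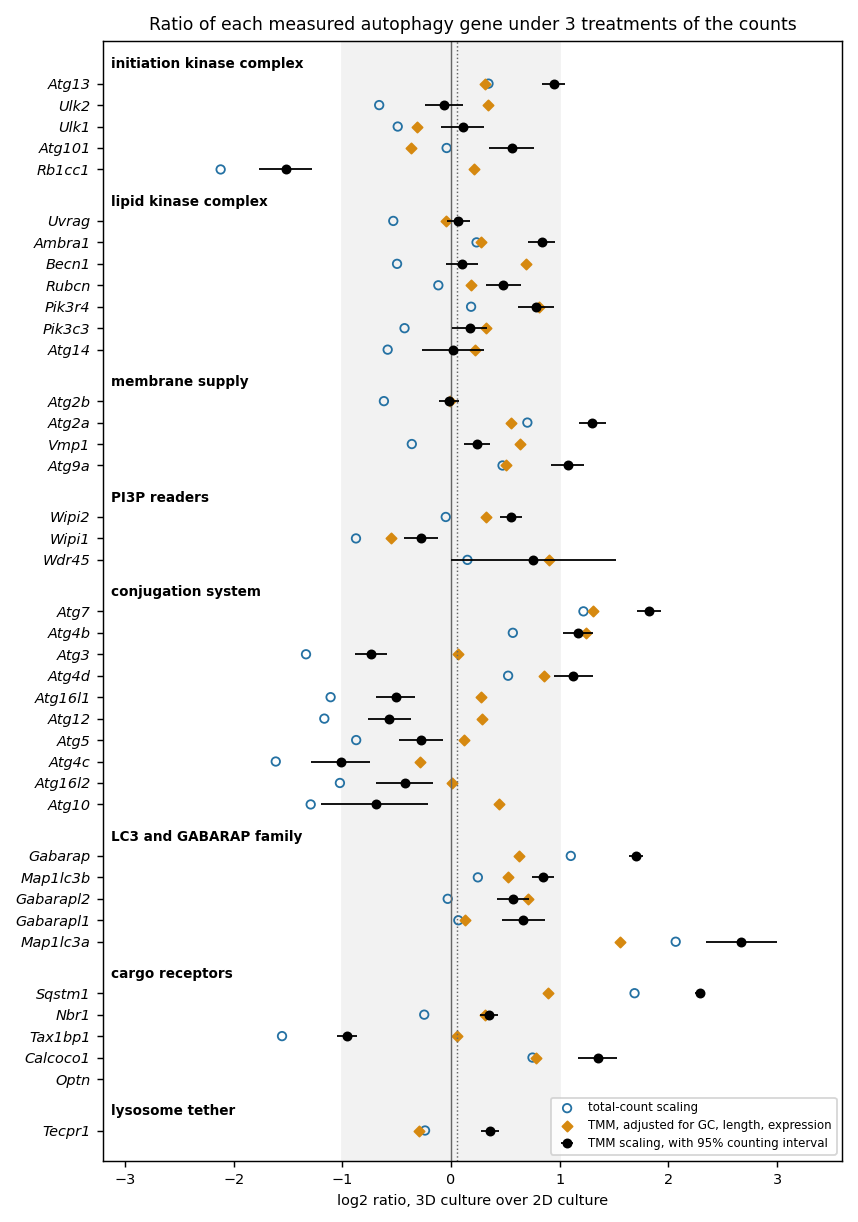
Log2 ratio of 3D over 2D for the 39 measured genes: black points with 95% counting intervals under TMM scaling, open blue circles under total counts, and orange diamonds after adjustment of the TMM values for transcript GC, length and expression. The shaded band lies within 2-fold and the dotted line marks the median of all measured genes, 0.05; Map1lc3a, Sqstm1, Atg7 and Gabarap lie beyond the band under both scalings, and Optn has no ratio.

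Per kilobase of exon, Sqstm1 was first and Gabarap next in both libraries. The length is that of all annotated exons of a gene together, which can exceed the transcript present. Levels of different genes can therefore be compared only roughly. Sqstm1 stood at 559 CPM per kilobase in 3D and 115 in 2D, and Gabarap at 293 in 3D and 90.2 in 2D. The median over the 39 genes with counts was 10.7 CPM per kilobase in 3D and 7.47 in 2D. Atg7 ranked 5 of 40 in 3D and 20 in 2D, and Map1lc3a ranked 4 in 3D and 28 in 2D. In contrast, Atg3 ranked 15 in 3D and 3 in 2D, and Tax1bp1 ranked 22 in 3D and 5 in 2D. Lowest among genes with counts was Wdr45, with 0.804 CPM per kilobase in 3D and 0.478 in 2D.

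The balance between related genes does not depend on how the libraries are scaled, because a library's factor cancels in a ratio of its own counts. The 18 pairs were drawn up with the values known. Atg7 stood to Atg3 at 2.09 to 1 per kilobase in the 3D library and 0.357 to 1 in the 2D library, a 5.87-fold difference in balance (95% counting interval 5.17 to 6.66). Atg2a to Atg2b was 1.64 in 3D and 0.655 in 2D, a 2.50-fold difference (2.25 to 2.77), so the more abundant paralog per kilobase differed between the libraries. By CPM without division by length, Atg2b was the higher in both libraries. Atg4b to Atg4c was 3.19 in 3D and 0.702 in 2D, a 4.54-fold difference (3.68 to 5.58). Map1lc3a to Map1lc3b was 1.56 in 3D and 0.443 in 2D, a 3.53-fold difference (2.80 to 4.45). Their exon lengths were 1181 and 7517 bases, and by CPM without division by length Map1lc3b was the higher in both libraries. The uncertain assignment of reads between Map1lc3b and Gm6055 also bears on this pair. Gabarap to Gabarapl1 was 16.9 in 3D and 8.25 in 2D, a 2.05-fold difference (1.78 to 2.36). After adjustment for GC content, length and expression, the differences in balance were 2.37-fold for Atg7 to Atg3, 1.48-fold for Atg2a to Atg2b, 2.88-fold for Atg4b to Atg4c, 2.05-fold for Map1lc3a to Map1lc3b and 1.41-fold for Gabarap to Gabarapl1. Gabarap to Gabarapl2 differed 2.19-fold from the counts and 0.947-fold after adjustment, and Gabarap to Map1lc3b 1.81-fold from the counts and 1.08-fold after adjustment. From the counts, Sqstm1 to Tax1bp1 was 56.7 in 3D and 5.99 in 2D, the widest difference of the 18 pairs at 9.47-fold (8.84 to 10.1), and 1.79-fold after adjustment. The counting interval included 1 for 4 pairs: Ulk1 to Ulk2 at 1.13 (0.939 to 1.35), Atg4b to Atg4d at 1.03 (0.883 to 1.2), Atg16l1 to Atg16l2 at 0.942 (0.759 to 1.17) and Gabarapl2 to Gabarapl1 at 0.934 (0.790 to 1.11). Adjusted, the balance of Ulk1 to Ulk2 was 0.638, on the other side of 1, and those of the other 3 pairs were 1.31, 1.2 and 1.49.

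**Figure D3:**
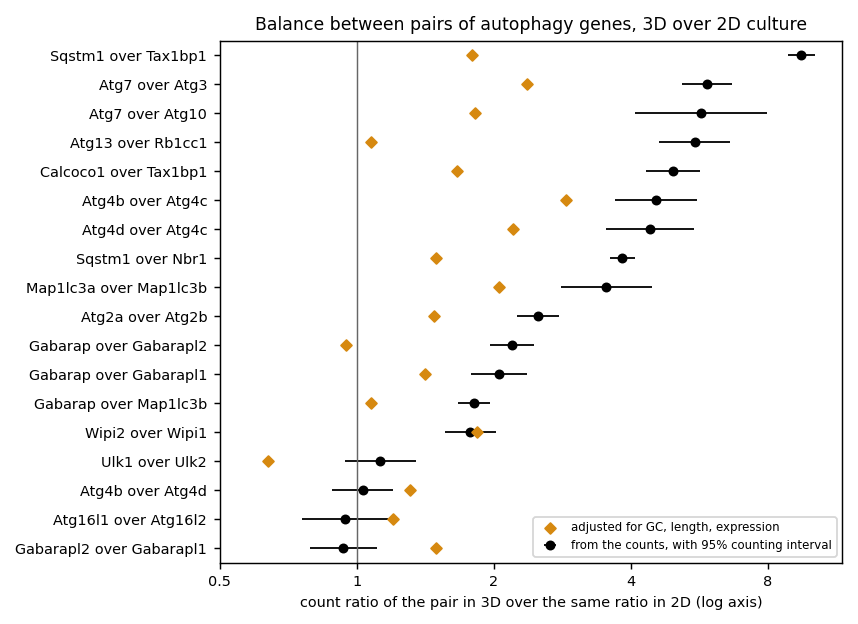
Count ratio of each of 18 pairs of autophagy genes in the 3D library over the same ratio in the 2D library (log axis), from the counts with 95% counting intervals (black) and after adjustment for transcript GC, length and expression (orange). Sqstm1 over Tax1bp1 differs most at 9.47 and 4 intervals include 1; the adjusted value of Sqstm1 over Tax1bp1 is 1.79.

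The ratio of the members ran along the GC content of their transcripts, as it did across protein-coding genes. Over the 39 measured members, Pearson's r between GC content of the longest transcript and log2 ratio was 0.75 and Spearman's rho 0.74. Across 10538 protein-coding genes, which share the same pair of libraries, r was 0.58 and rho 0.62. These describe genes, which are not independent replicates, and carry no test. The 9 higher members had GC contents from 49.5% to 63.1%, while Rb1cc1 had 39.1% and Atg4c 44.0%. Tax1bp1, Atg3 and Atg10, with ratios below 1, had 39.6%, 40.1% and 40.3%.

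Set against protein-coding genes of like GC content, in 20 bins of equal size, 5 of 39 members lay above the 90th percentile of their bin and 0 below the 10th. By definition about 10% of the genes of a bin lie past each limit, so the share above was near that background. These 5 were Sqstm1, Gabarap, Map1lc3a, Atg7 and Atg4b. Sqstm1 had a log2 ratio of 2.29 in a bin whose 90th percentile was 1.46, and Atg7 had 1.82 against 1.41. Rb1cc1, the lowest member, was within the range of its bin. Above the median of their bin were 27 members, with 12 below it.

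**Figure D4:**
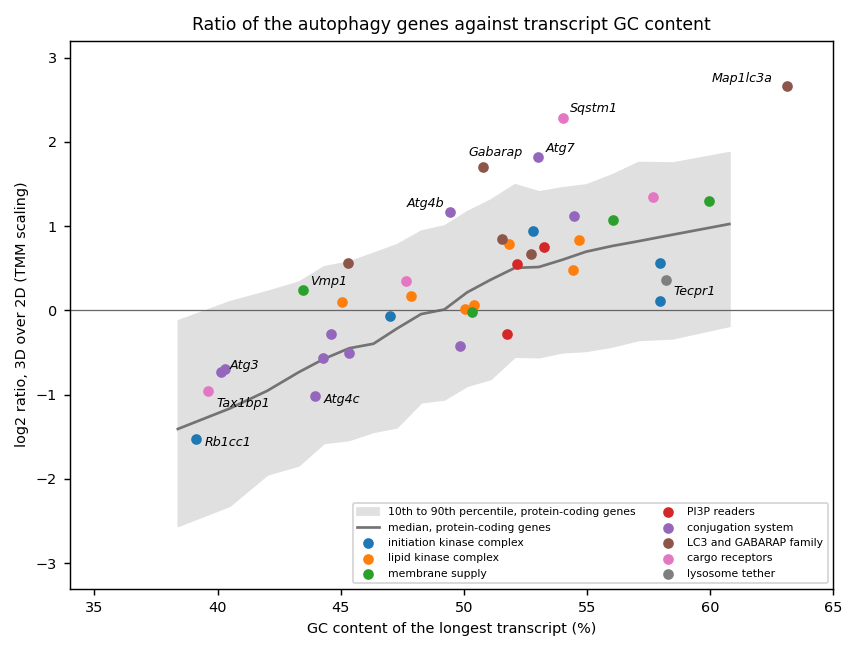
Log2 ratio of 3D over 2D under TMM scaling against the GC content of the longest transcript for the 39 measured genes, coloured by role, over the median (line) and the 10th to 90th percentile (band) of 10538 protein-coding genes in 20 bins. Sqstm1, Gabarap, Map1lc3a, Atg7 and Atg4b lie above the 90th percentile of their bins.

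After adjustment for GC content, length and expression level over all measured protein-coding genes, the members' median log2 ratio was 0.31, beside 0.07 for all genes adjusted. Then 3 members were at least 2-fold higher, against 9.95% of all genes, and 0 were at least 2-fold lower, against 7.39%. The 3 were Map1lc3a, Atg7 and Atg4b, with adjusted log2 ratios of 1.56, 1.30 and 1.24. Adjusted log2 ratios were 0.89 for Sqstm1, 0.85 for Atg4d, 0.78 for Calcoco1, 0.63 for Gabarap, 0.55 for Atg2a and 0.50 for Atg9a, all still above 0. Rb1cc1 turned to 0.21 and Atg4c remained below 0 at -0.28. Of the conjugation genes, 9 of 10 were above 0 after adjustment, among them Atg3 at 0.06 and Atg10 at 0.44. In all, 32 of 39 members lay above 0 and 7 below, beside 5697 and 4841 of the 10538 genes adjusted. The adjustment removes any difference between the cultures that runs along these properties, whatever its source. Its expression term is the mean CPM of both libraries, so it holds the 3D level itself. Adjusted for GC content alone, log2 ratios were 1.77 for Sqstm1 and 1.52 for Gabarap, both past 2-fold. They were 0.59 for Calcoco1, 0.57 for Atg4d, 0.45 for Atg2a and 0.40 for Atg9a. Rb1cc1 then stayed below 0 at -0.23, and Atg4c at -0.32.

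The other genes of the pathway, in lists drawn up by role, are counted under TMM scaling beside the 18.7% higher and 20.8% lower among all measured genes. Counts under total counts are read beside 5.77% and 35.9%, and adjusted counts beside 9.95% and 7.39%. Of 9 further genes of the core machinery, among them Atg4a, Atg9b and Wdr45b, 0 were past 2-fold in either direction, and under total counts 2 were lower. Of 16 genes for fusion with the lysosome, 4 were at least 2-fold higher and 0 lower; under total counts 1 was higher and 2 lower, and after adjustment 1 was higher, Rilp. Vps18 and Vps11, subunits of the HOPS tethering complex, had ratios of 2.87 (2.67 to 3.08) and 2.12 (2.0 to 2.24). The SNARE gene Vamp8 had 98.2 CPM in 3D and 37.7 CPM in 2D, a ratio of 2.61 (2.37 to 2.87). Rilp, which encodes an effector of RAB7, had 41 counts in 3D and 12 in 2D. Stx17, the SNARE of the autophagosome, had 159 counts in 3D and 401 in 2D, a ratio of 0.518 (0.429 to 0.624) and an adjusted log2 ratio of 0.04. It lay within 2-fold and is named for its role, with its value known.

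Of 12 measured genes for mitophagy, the removal of mitochondria, 4 were higher and 1 lower. Under total counts 2 were higher and 2 lower, and after adjustment 0 were higher and 1, Tbk1, was lower. Pink1, the kinase that marks damaged mitochondria, had 70.6 CPM in 3D and 19.96 CPM in 2D, a ratio of 3.54 (3.13 to 4.01). Fkbp8 and Phb2, which encode mitochondrial receptors, had ratios of 3.33 (3.2 to 3.46) and 2.32 (2.21 to 2.43). Tbk1, the kinase that phosphorylates several cargo receptors, had 36.1 CPM in 3D and 91.8 CPM in 2D and was 2.54-fold lower (2.30 to 2.82). Its adjusted log2 ratio was -1.095, against 0.88 for Pink1 and 0.31 for Fkbp8. Among 9 measured genes for selective autophagy of the endoplasmic reticulum and other cargo, 1 was higher and 1 lower, against 1 and 3 under total counts and 0 and 0 after adjustment. Tex264, a receptor gene for the endoplasmic reticulum, had a ratio of 3.75 (3.44 to 4.08), and Sec62, whose product acts in recovery from stress there, was 2.24-fold lower (2.01 to 2.50). Their adjusted log2 ratios were 0.71 and -0.50.

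Upstream, 25 genes of the mTORC1 and AMPK kinases, which hold back and start autophagy, were measured, with 4 higher and 2 lower. Under total counts 1 was higher and 8 lower, and after adjustment 0 were higher and 2 lower. Akt1s1, Lamtor1 and Tsc2, an inhibitor, a lysosomal anchor and a negative regulator of mTORC1, had ratios of 3.11 (2.81 to 3.44), 2.40 (2.23 to 2.59) and 2.33 (2.18 to 2.48). Deptor, another mTOR inhibitor, had 39 counts in 3D and 260 in 2D and was 5.10-fold lower (3.63 to 7.34). Of 13 genes for transcriptional control, 3 were higher and 4 lower, against 0 and 5 under total counts and 2 and 2 after adjustment. The 2 higher after adjustment were Tfe3 and Tfec. Tfec had only 29 counts in 3D and 20 in 2D. Its ratio of 1.90 (1.04 to 3.53) was within 2-fold under TMM scaling, while its adjusted log2 ratio was 2.69. Tfe3, a relative of TFEB, had 144 CPM in 3D and 55.9 CPM in 2D, a ratio of 2.58 (2.39 to 2.79), with an adjusted log2 ratio of 1.098. Mitf, of the same family, was 2.92-fold lower (2.56 to 3.34). Zkscan3, described in human cells as a repressor of autophagy genes, was 3.03-fold lower (2.58 to 3.57), and Fnip1, a partner of folliculin, 4.15-fold lower (3.73 to 4.63). Their adjusted log2 ratios were -0.77, -1.01 and -0.94. The median log2 ratio under TMM scaling was 0.66 for the mitophagy list, 0.31 for fusion, 0.28 for the other core machinery, 0.22 for mTORC1 and AMPK, 0.20 for the endoplasmic reticulum list and -0.18 for transcriptional control. Under total counts the medians were below 0 for all of these lists except mitophagy, at 0.06. After adjustment they were 0.37, 0.13, 0.39, -0.11, -0.10 and -0.40 in the same order of lists.

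**Figure D5:**
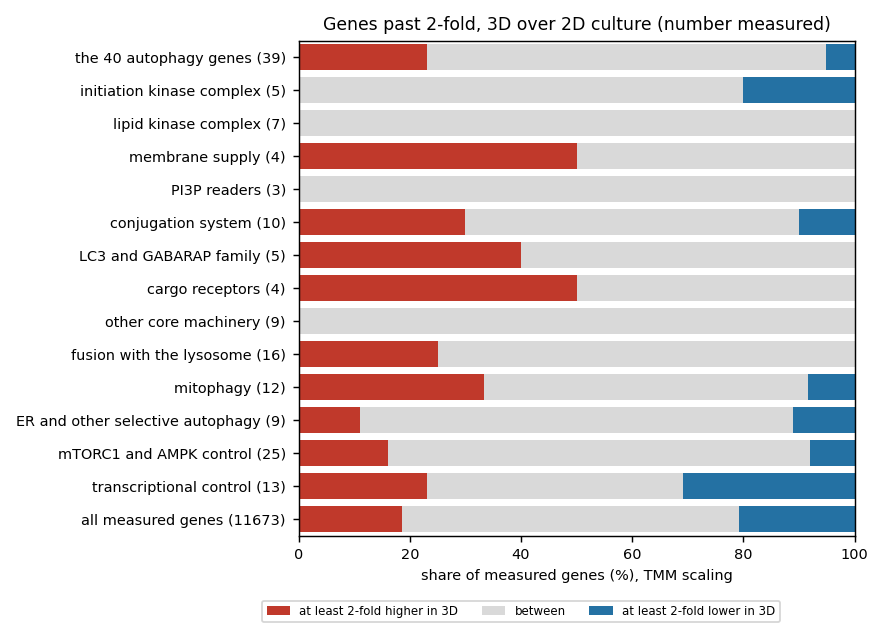
Share of measured genes (percent) at least 2-fold higher in 3D (red), between (grey) and at least 2-fold lower in 3D (blue) under TMM scaling, for the 40 autophagy genes, their roles, the other lists of the pathway and all measured genes, with the number measured in parentheses. The lipid kinase complex, the readers of the lipid mark and the other core machinery have 0 genes past 2-fold, while 9 of the 39 measured members are higher and 2 lower.

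Markers of the labelled cell type were present. All 12 macrophage markers had counts in both libraries, and 11 were measured, with summed levels of 10145 CPM in 3D and 3541 CPM in 2D. The defining genes Csf1r, Cd68, Lyz2 and Spi1 were each at 130.3 CPM or more in both libraries, and 7 of the 11 measured markers were 2-fold or more higher in 3D and 1 lower, beside 18.7% and 20.8% of all genes. Under total counts 4 of the 11 were higher and 3 lower, and after adjustment 0 were past 2-fold in either direction. Markers of fibroblasts, epithelial cells and lymphocytes summed to 28, 15 and 4 counts in 3D and 36, 5 and 7 counts in 2D. Of 8 hepatocyte markers, 6 had counts in 3D and 3 in 2D, and they summed to 319 counts in 3D and 10 in 2D, mostly Alb with 232 in 3D and 8 in 2D, while Cps1 and Tat had 0 in both. The part of these markers in the autophagy results was not tested.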

How the data were processed

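Polyadenylated RNA of RAW264.7 cells was sequenced from 1 library per culture method. The authors deposited whole-number read counts for each Ensembl identifier, made with Trimmomatic, HISAT2 and HTSeq on mm10, per the submitters' processing notes. Their versions, strand option and annotation are not stated in any label. Per the labels' protocols, extraction used TRIzol and library preparation a stranded TruSeq kit. Of 52550 identifiers, 52403 matched GENCODE M21 (build mm10), which gave symbols, positions, exon lengths and GC content. The members, lists and named genes were chosen with earlier results of these data known.

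Counts were scaled by TMM (edgeR 4.0.16, run in R 4.3.3), with factors of 0.813 in 3D and 1.23 in 2D. For 0 counts the limit is that of 3 counts, and genes under a mean of 1 CPM were left out. Intervals are Clopper-Pearson, conditional on the summed count. No test was possible with 1 library per culture method. Named genes were each member past 2-fold, the most abundant of each role, and up to 4 past 2-fold per list. Copies of members were found with BLAST+ 2.17.0 (at least 90% identity over at least 200 bases). The match also had to cover at least 50% of the copy's transcript and lie on its plus strand. The adjustment fitted the log2 ratio on GC content, log2 exon length and log2 mean CPM, each as a natural spline with df = 4 (patsy 1.0.2), over 10538 genes and kept the median. The code was tested on simulated counts. A planned look at protein sequences was left out for want of a table. Alternatives were DESeq2 1.42.0 size factors, total counts, upper quartile, other filters, a pseudocount, other size rules, the adjustments and thinning.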

Additional observations from a re-analysis of the deposited data

How the results depend on the processing

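The count of 9 members at least 2-fold higher in 3D was also 9 with DESeq2 size factors, with upper-quartile scaling, without a filter, with a filter at 5 CPM, with a pseudocount of 1 CPM and after thinning, where 8 of the 9 were the same genes. It was 4 under total counts, 15 at a 1.5-fold rule and 7 where the interval bound had to pass 2-fold. After adjustment for GC content it was 6, of which 5 were among the 9 and the other was Gabarapl2. After the full adjustment it was 3, all among the 9. Shares of all genes were not counted for the 1.5-fold rule, the interval bound or GC content alone. The count of 2 lower members was 1 with DESeq2, with upper-quartile scaling, with the pseudocount and by the interval bound, 8 under total counts, 5 at 1.5-fold, 3 after thinning and 0 after either adjustment. Atg4c, at 2.02-fold, lies next to the limit. The median log2 ratio of the members was -0.24 under total counts, and the full adjustment, for GC content, length and expression, turned Rb1cc1 to 0.21. With GC content alone Rb1cc1 stayed lower, at a log2 ratio of -0.23. An alternative chosen after seeing the data left out 12 members with near-identical copies or over 15% of exon bases shared with another gene. Among those left out were Sqstm1, Atg4b, Atg4d, Atg9a and Rb1cc1. This alternative gave 5 higher, 1 lower and a median of 0.17 over 27 members, beside 18.7% higher and 20.8% lower among all measured genes. The cause of these differences was not tested, other than that fewer genes were counted or another limit applied. Giving all counts of Gm6055 to Map1lc3b changed neither count. No paired analysis was possible because each culture method had 1 library, and no library could be left out. Low counts limit Wdr45, Atg10, Rilp and Tfec, among others.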
